A study of Mus musculus with 9 samples.

Results

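The adipocyte genes of the ear skin were Adipoq, Lep, Retn, Cfd, Plin1, Plin4, Cidec, Lpl, Fabp4 and Pparg. They were taken from the count table by gene symbol and made up 10 of its 52550 genes. All 10 had enough counts to be tested in every comparison. None of the 10 was called in any of the 3 comparisons, where a call took an edgeR p, adjusted by Benjamini-Hochberg over all genes, of at most 0.05 and a log2 fold change of at least 1 in either direction. Adipoq, Lep, Retn, Cfd, Plin1 and Cidec differed more between libraries of the same group than between the means of the groups. In counts scaled to library size (CPM), Plin4 averaged 108 with vaseline and water (VAS+H2O) and 199 with imiquimod and water (IMQ+H2O, adjusted p = 0.0294, under the limit on size). Fabp4 averaged 321 and 637 CPM in these groups, and Lpl 183 CPM in VAS+H2O and 108 CPM with imiquimod and a herbal decoction (IMQ+XYF), and neither difference passed the test. Pparg averaged between 44.2 and 48.2 CPM in the 3 groups.

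Adipocytes of the skin form a layer of white fat beneath the dermis, where they store triglyceride in a single large lipid droplet and release hormones called adipokines. PPARγ, encoded by Pparg, is the nuclear receptor that drives fat cell differentiation together with C/EBPα. Fatty acids reach the cell after lipoprotein lipase has cut them from circulating triglyceride, are carried by binding proteins, and are released again by lipolysis, which the perilipins on the droplet surface control.

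RNA was sequenced from dermal sheets of the ears of male, wild-type C57BL/6 mice (C57BL/6J in the methods) aged 8 weeks. All mice were gavaged daily with 200 µl for 10 days, and the methods and a figure legend differ on the number of doses per day. The mice had a topical agent on the ears for the last 5 of these days. The VAS+H2O group had vaseline and water. The IMQ+H2O group had imiquimod cream, a Toll-like receptor agonist that causes psoriasis-like skin inflammation, and water. The IMQ+XYF group had the same cream and, in place of water, the herbal decoction Xiao-Yin-Fang (XYF) at 23.3 mg/g. Each group had 3 libraries. The methods name ear sheets from a pair of mice, and whether a library pooled mice was not stated, so p-values measure the spread between these libraries, which may be technical.

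Libraries held between 28756305 and 79836881 counts. Levels are given as CPM, the counts of a gene relative to all counts of its library and scaled by TMM, which adjusts for differences in library composition. Values after ± are SD with n = 3. The members had between 106 counts, for Retn, and 39384 counts, for Fabp4, in a library. In bulk tissue, fewer cells of a type and less RNA per cell cannot be told apart. Markers of other tissues were present in the sheets. The summed level of 10 epidermis markers ranged from 2159 to 14706 CPM, highest in IMQ+XYF replicate 1. The summed level of 12 skeletal muscle markers ranged from 154 to 3416 CPM, lowest in that same library. The 11 tested cartilage markers had median log2 fold changes of -1.91 for IMQ+H2O against VAS+H2O and 1.29 for IMQ+XYF against IMQ+H2O, and the 8 tested neutrophil markers of 4.93 and -0.40. IMQ+XYF replicate 2 had the lowest level of all 9 libraries for 8 of the 10 adipocyte genes. Other libraries came close, as for Retn, at 3.62 CPM in IMQ+XYF replicate 2 and 3.65 CPM in IMQ+H2O replicate 1. The mean log2 CPM of the members, each centred over the 9 libraries, was -0.77 in IMQ+XYF replicate 2 and -0.55 in VAS+H2O replicate 1. Fold changes of the members without IMQ+XYF replicate 2 are given with the comparisons of IMQ+XYF.

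**Figure D1:**
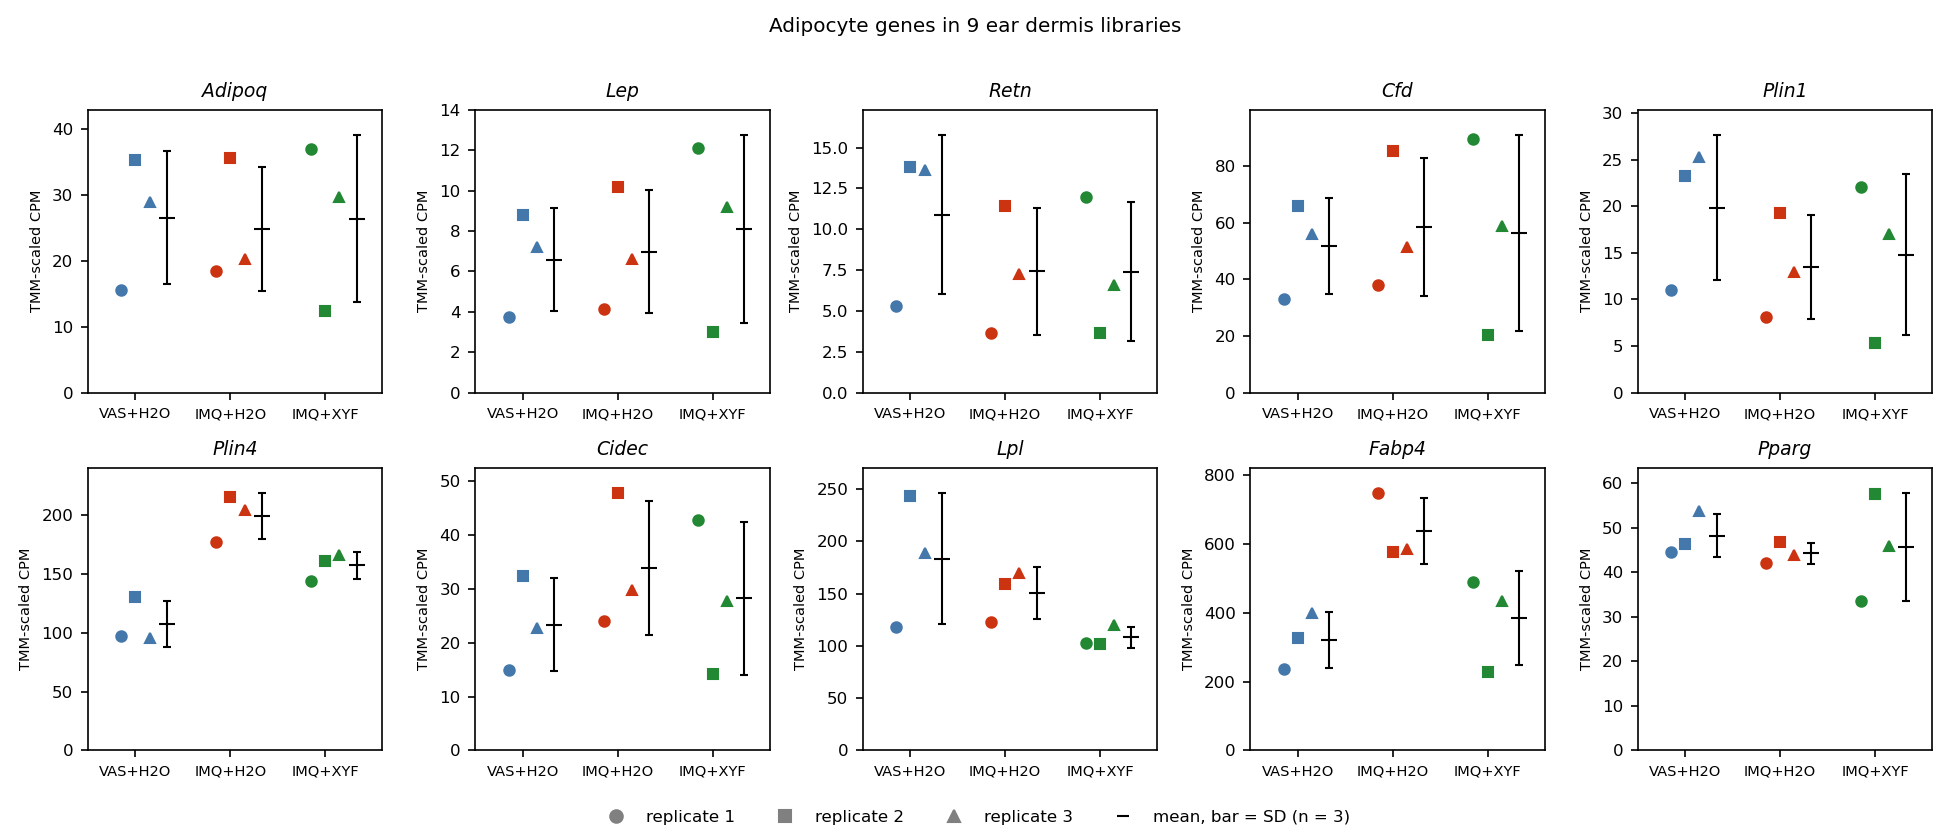
TMM-scaled CPM of the 10 adipocyte genes in each library (symbols) of the 3 groups, with mean and SD (n = 3). Adipoq spanned 12.4 to 37.0 CPM within IMQ+XYF alone, while Plin4 in IMQ+H2O (177 to 215 CPM) lay above VAS+H2O (95.3 to 130 CPM).

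The levels per transcript length in VAS+H2O set the order of the genes. Fabp4, the cytosolic fatty acid carrier that is also made by capillary endothelium and macrophages, was at 358 ± 90.3 CPM per kb. Cfd was at 56.0 ± 18.3 and Lpl at 44.5 ± 15.3 CPM per kb, within each other's spread. Pparg was at 27.3 ± 2.73, Adipoq at 20.6 ± 7.79, Plin4 at 18.7 ± 3.36 and Cidec at 13.6 ± 5.03 CPM per kb, and the ranges of mean ± SD of neighbours in this order overlapped. Retn was at 9.57 ± 4.25 and Plin1 at 7.04 ± 2.75 CPM per kb, which also overlapped. Lep was the lowest per length at 2.02 ± 0.789 CPM per kb. The defining fat cell genes Adipoq, Plin1 and Cidec were detected in all 9 libraries, with at least 237 counts in each.

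Adipoq, Lep, Retn, Cfd, Plin1 and Cidec moved together from library to library. Of their upstream windows, those of Lep, Plin1 and the second start of Cidec are shown because they hold the letters of a C/EBP site, and that of Adipoq as an example without them. Each line is the 250 bases before a transcription start in RefSeq (GRCm38.p6), read 5′ to 3′ on the strand of the gene. Such windows were at hand for 8 of the members, all but Fabp4 and Lpl. Capitals mark the letters TTGCNNAA, a form of the C/EBP site, searched on both strands.
Adipoq, chr16:23146286-23146535, plus strand: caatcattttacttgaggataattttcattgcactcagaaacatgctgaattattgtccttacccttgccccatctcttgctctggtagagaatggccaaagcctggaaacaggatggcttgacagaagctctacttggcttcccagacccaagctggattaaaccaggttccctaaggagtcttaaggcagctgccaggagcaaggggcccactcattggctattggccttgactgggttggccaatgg
Lep, chr6:29059971-29060220, plus strand: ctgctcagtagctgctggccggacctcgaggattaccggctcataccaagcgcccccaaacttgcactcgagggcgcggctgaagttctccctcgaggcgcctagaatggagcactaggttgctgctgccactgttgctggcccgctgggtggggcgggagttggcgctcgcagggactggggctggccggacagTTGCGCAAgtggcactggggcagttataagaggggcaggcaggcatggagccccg
Plin1, chr7:79732777-79733026, minus strand: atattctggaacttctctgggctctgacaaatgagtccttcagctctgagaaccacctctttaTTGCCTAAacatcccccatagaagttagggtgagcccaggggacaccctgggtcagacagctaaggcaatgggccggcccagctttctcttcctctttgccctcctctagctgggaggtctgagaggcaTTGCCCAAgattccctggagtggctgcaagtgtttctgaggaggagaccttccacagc
Cidec, second start, chr6:113434765-113435014, minus strand: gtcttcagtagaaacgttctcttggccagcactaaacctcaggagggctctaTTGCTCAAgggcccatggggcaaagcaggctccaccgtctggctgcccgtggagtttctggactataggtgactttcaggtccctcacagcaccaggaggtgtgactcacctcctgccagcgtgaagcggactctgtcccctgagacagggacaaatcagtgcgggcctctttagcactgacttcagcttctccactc
The letters stood 55 bases before the Lep start, where they read the same on both strands, and 187 and 58 bases before the Plin1 start. They stood 198 bases before the second start of Cidec and in the third window of Pparg, and were not in the windows of Adipoq, Retn, Cfd and Plin4, the first window of Cidec or the other windows of Pparg. In all, 4 of 11 windows of the members held them, against 9.56% of 32851 promoter windows of the genome. The letters AGGTCANAGGTCA, the direct repeat to which PPARγ and its partner RXR bind, were searched with up to 2 mismatches. They occurred in 0 of the 11 windows and in 3.24% of all windows. The letters TATAAA occurred in 1 window, of Pparg, and in 12.4% of all windows. A match is a description of these letters and shows no binding.

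Coordinates are those of GRCm38 in GENCODE. Adipoq (chr16:23146536-23158028, plus strand) encodes adiponectin, an insulin-sensitising hormone made almost only by fat cells. Its level was 15.5, 35.2 and 28.9 CPM in VAS+H2O, 18.5, 35.6 and 20.2 CPM in IMQ+H2O, and 37.0, 12.4 and 29.7 CPM in IMQ+XYF. Every group held a low and a high library, and the groups overlapped throughout. The means were 26.6 ± 10.1, 24.8 ± 9.44 and 26.4 ± 12.7 CPM. Adipoq had a log2 fold change of -0.10 (95% interval -1.11 to 0.91) for IMQ+H2O against VAS+H2O and 0.090 (-0.91 to 1.09) for IMQ+XYF against IMQ+H2O. Each interval passes the limit of 1 on one side and nearly reaches it on the other, so a change of that size was not excluded in either comparison.

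Lep (chr6:29060220-29073877, plus strand) encodes leptin, the hormone that reports fat stores. It was at 3.76, 8.78 and 7.23 CPM in VAS+H2O, at 4.13, 10.2 and 6.61 CPM in IMQ+H2O, and at 12.1, 2.99 and 9.19 CPM in IMQ+XYF. The order of the libraries within each group was that of Adipoq. The log2 fold change of Lep was 0.083 ± 0.53 (SE) for IMQ+H2O against VAS+H2O and 0.21 ± 0.53 (SE) for IMQ+XYF against IMQ+H2O.

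Cfd (chr10:79890853-79892655, plus strand) encodes adipsin, the complement protease factor D, which mouse fat cells secrete in large amounts. It was at 32.9, 65.8 and 56.1 CPM in VAS+H2O, at 38.1, 85.3 and 51.5 CPM in IMQ+H2O, and at 89.4, 20.4 and 58.8 CPM in IMQ+XYF. The spread within IMQ+XYF was 4.38-fold and wider than that of the group means, which were 51.6 ± 16.9, 58.3 ± 24.3 and 56.2 ± 34.6 CPM. The log2 fold changes of Cfd were 0.18 ± 0.51 (SE) and -0.053 ± 0.51 (SE) in the same 2 comparisons.

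Retn (chr8:3655770-3660110, plus strand) encodes resistin, which in mice is a hormone of white fat. Its libraries read 5.31, 13.8 and 13.6 CPM in VAS+H2O, 3.65, 11.4 and 7.24 CPM in IMQ+H2O, and 12, 3.62 and 6.56 CPM in IMQ+XYF. The mean of VAS+H2O, 10.9 ± 4.84 CPM, was above those of IMQ+H2O (7.44 ± 3.89 CPM) and IMQ+XYF (7.40 ± 4.26 CPM), and all 3 groups overlapped. Retn had, for IMQ+H2O against VAS+H2O, a log2 fold change of -0.55 (95% interval -1.80 to 0.70), with an edgeR quasi-likelihood adjusted p of 0.602.

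**Figure D2:**
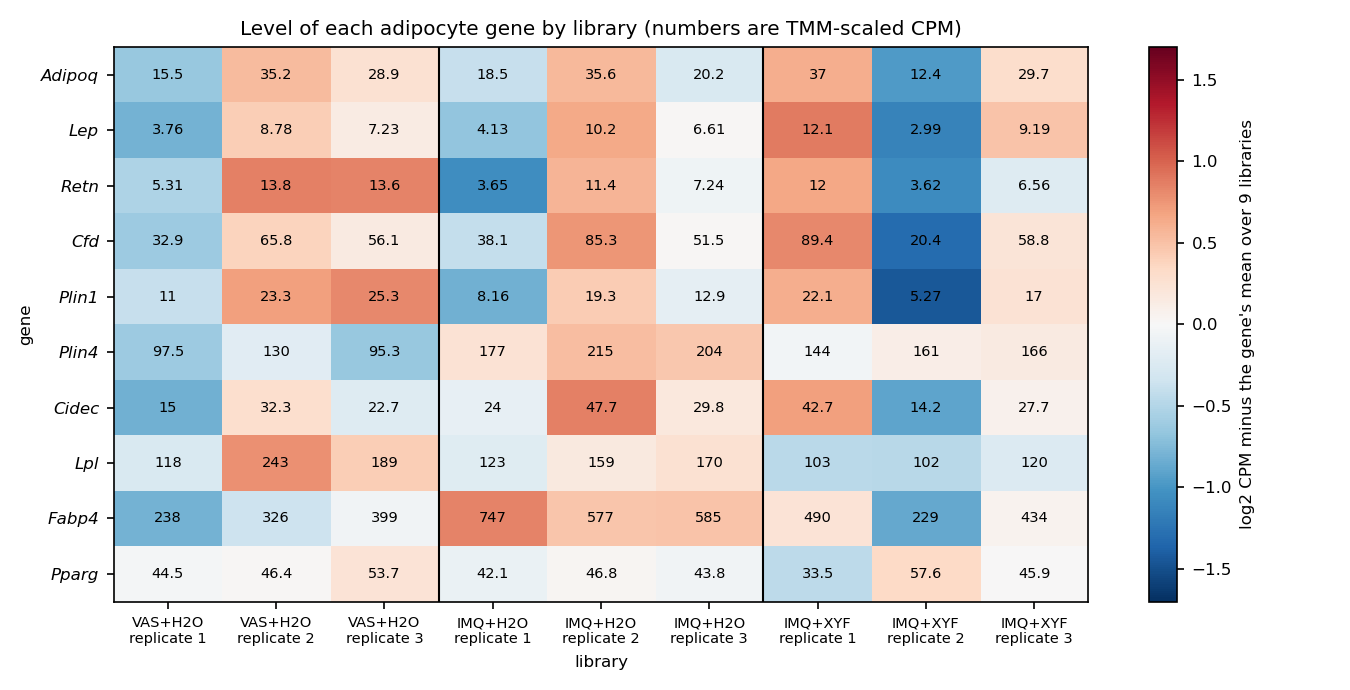
Level of each adipocyte gene (rows) in each library (columns), coloured by log2 CPM minus the gene's mean over 9 libraries and printed as CPM. IMQ+XYF replicate 2 was low for Adipoq, Lep, Retn, Cfd, Plin1, Cidec and Fabp4, and VAS+H2O replicate 1 and IMQ+H2O replicate 1 were low for Adipoq, Lep, Retn, Cfd and Plin1.

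Of the lipid droplet genes, Plin1 and Cidec followed the adipokines and Plin4 did not. Plin1 (chr7:79720218-79732903, minus strand) encodes perilipin 1, the coat protein that gates lipolysis in fat cells. Its libraries were at 11, 23.3 and 25.3 CPM in VAS+H2O, at 8.16, 19.3 and 12.9 CPM in IMQ+H2O, and at 22.1, 5.27 and 17.0 CPM in IMQ+XYF. Its range over the 9 libraries was 4.80-fold, the widest of the 10 genes. Plin1 had, for IMQ+H2O against VAS+H2O, a log2 fold change of -0.56 (95% interval -1.76 to 0.64).

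Cidec (chr6:113424634-113435760, minus strand) encodes the protein that lets droplets fuse into 1 large droplet. It was at 15, 32.3 and 22.7 CPM in VAS+H2O, at 24.0, 47.7 and 29.8 CPM in IMQ+H2O, and at 42.7, 14.2 and 27.7 CPM in IMQ+XYF. The groups overlapped, with means of 23.3 ± 8.64, 33.8 ± 12.4 and 28.2 ± 14.3 CPM. Cidec had, for IMQ+H2O against VAS+H2O, a log2 fold change of 0.54 (95% interval -0.44 to 1.51).

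Plin4 (chr17:56100591-56109803, minus strand) encodes perilipin 4, a droplet protein of white fat that skeletal muscle also makes. The VAS+H2O libraries were at 97.5, 130 and 95.3 CPM, the IMQ+H2O libraries at 177, 215 and 204 CPM, and the IMQ+XYF libraries at 144, 161 and 166 CPM. No 2 groups overlapped: every IMQ+H2O library lay above every IMQ+XYF library, and these lay above every VAS+H2O library. Plin4 had, for IMQ+H2O against VAS+H2O, a log2 fold change of 0.89 ± 0.14 (SE), 1.85-fold, with an edgeR adjusted p of 0.0294. This met the limit on the adjusted p and missed the limit on size, and without VAS+H2O replicate 2 it met both (log2 1.04, adjusted p = 0.0357). Over all alternatives its adjusted p ran from 2.23e-06 to 0.111. In IMQ+XYF against IMQ+H2O, Plin4 had a log2 fold change of -0.34 ± 0.14 (SE), with an edgeR adjusted p of 0.405. Against VAS+H2O it was 0.55 ± 0.14 (SE), with an adjusted p of 0.0848.

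**Figure D3:**
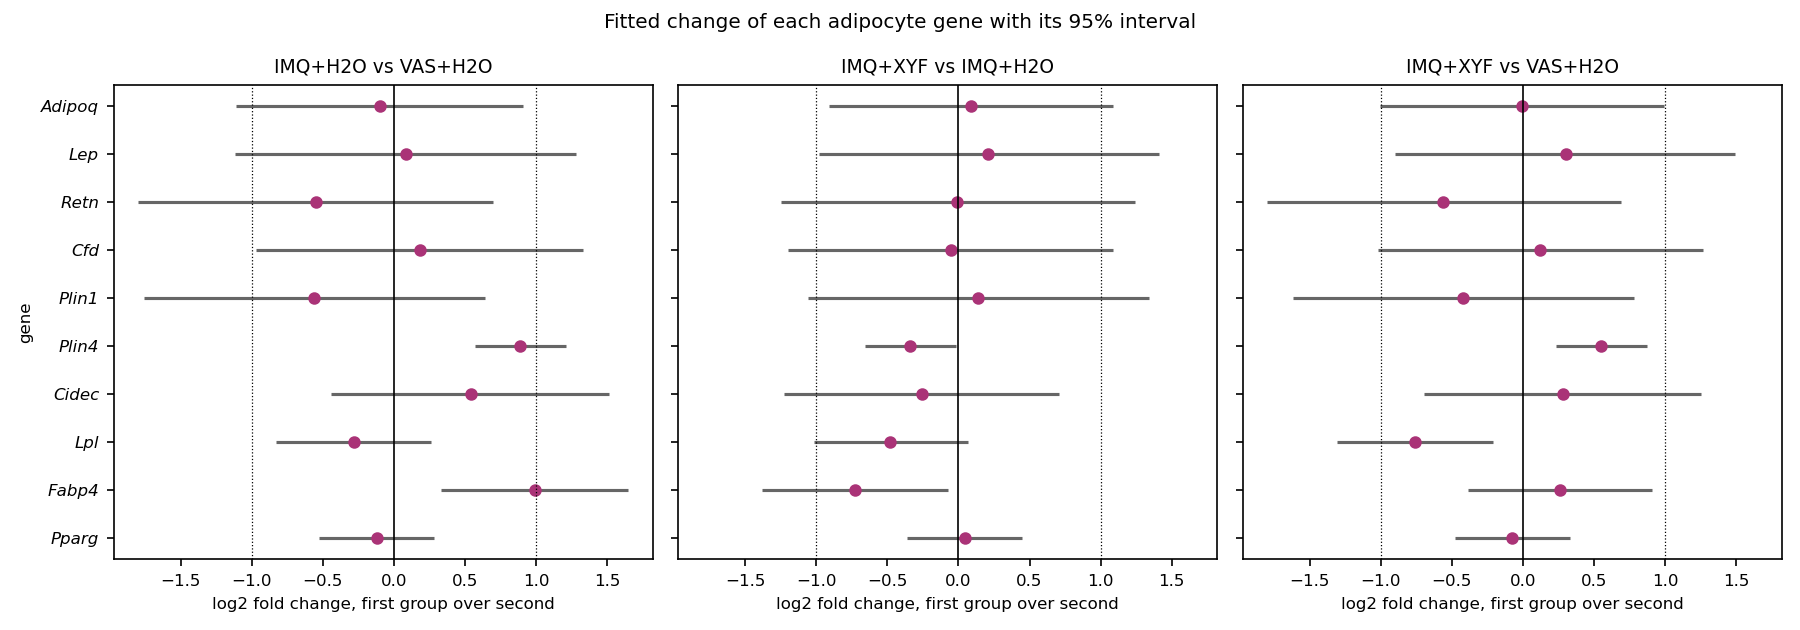
Fitted log2 fold change of each adipocyte gene (points) with its 95% interval (lines) in the 3 comparisons, with dotted lines at the limit of 1 in each direction. The intervals of Plin4 (0.57 to 1.21) and Fabp4 (0.33 to 1.65) for IMQ+H2O against VAS+H2O exclude 0, whereas those of the 4 adipokines include it in all 3 comparisons.

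Of the genes that handle fatty acids, Fabp4 and Lpl had their largest differences in different comparisons. Fabp4 (chr3:10204088-10208576, minus strand) was at 238, 326 and 399 CPM in VAS+H2O, at 747, 577 and 585 CPM in IMQ+H2O, and at 490, 229 and 434 CPM in IMQ+XYF. All IMQ+H2O libraries lay above all libraries of both other groups, which overlapped each other. Fabp4 had, for IMQ+H2O against VAS+H2O, a log2 fold change of 0.99 ± 0.29 (SE), 1.98-fold, with an edgeR adjusted p of 0.118. It passed both limits under the DESeq2 Wald test (log2 1.02, adjusted p = 0.0183), when only these 2 groups were fitted (log2 1.02, adjusted p = 0.0425) and without IMQ+XYF replicate 2 (log2 1.01, adjusted p = 0.0322). Over all alternatives its adjusted p ran from 0.0183 to 0.268. In IMQ+XYF against IMQ+H2O, Fabp4 had a log2 fold change of -0.73 ± 0.29 (SE), with an adjusted p of 0.397, and it was -0.43 without IMQ+XYF replicate 2.

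The 12 markers of capillary endothelium moved in the same direction as Fabp4. Their summed level was 822, 1028 and 1262 CPM in VAS+H2O, 1746, 1681 and 1745 CPM in IMQ+H2O, and 1108, 694 and 1483 CPM in IMQ+XYF. For IMQ+H2O against VAS+H2O, 12 of 12 had a positive log2 fold change (median 0.70), 0 were called by edgeR and 7 had an unadjusted p under 0.05. In IMQ+XYF against IMQ+H2O, 12 of 12 were negative (median -0.66), again with 0 called and 8 at an unadjusted p under 0.05. Over all genes, 20.9% and 11.7% had such a p in these comparisons. Pecam1, the endothelial junction protein CD31, was at 246 ± 57.7, 443 ± 6.81 and 288 ± 129 CPM in the 3 groups. The 12 macrophage markers had medians of 0.45 and -0.58 in the same comparisons, with summed levels of 960 to 1480, 1194 to 1813 and 962 to 1195 CPM. No marker of either list was at 0 in all libraries of a group. The part of these cells in the Fabp4 levels was not tested.

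Lpl (chr8:68880491-68907448, plus strand) encodes lipoprotein lipase, which fat, muscle and macrophages secrete onto the capillary wall. It was at 118, 243 and 189 CPM in VAS+H2O, at 123, 159 and 170 CPM in IMQ+H2O, and at 103, 102 and 120 CPM in IMQ+XYF. All IMQ+XYF libraries lay below all IMQ+H2O libraries, and VAS+H2O replicate 1, at 118 CPM, fell within the range of IMQ+XYF. Lpl had a log2 fold change of -0.48 ± 0.24 (SE) for IMQ+XYF against IMQ+H2O, with an edgeR adjusted p of 0.464. Against VAS+H2O it was -0.76 ± 0.24 (SE), 1.69-fold lower, with an adjusted p of 0.141.

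Skeletal muscle markers, of a tissue that makes both Lpl and Plin4, had their lowest mean summed level in IMQ+XYF, at 703 CPM. VAS+H2O replicate 3, at 716 CPM, fell within the range of IMQ+XYF. The 12 markers summed to 716 to 3416 CPM in VAS+H2O, 1596 to 3403 CPM in IMQ+H2O and 154 to 1144 CPM in IMQ+XYF. For IMQ+XYF against IMQ+H2O, 12 of 12 were negative with a median of -1.71. Of these, 0 were called by edgeR and 9 had an unadjusted p under 0.05, against 11.7% of all genes. Against VAS+H2O, 12 of 12 were also negative in IMQ+XYF (median -1.58) and 0 were called. Here 6 had an unadjusted p under 0.05, against 18.3% of all genes. In this comparison Lpl was lower (log2 fold change -0.76) and Plin4 higher (0.55). The muscle creatine kinase Ckm was at 90.3 ± 48.1, 87.5 ± 35.4 and 28.4 ± 17.7 CPM in the 3 groups. No muscle marker was at 0 in all libraries of a group. The part of muscle in the Lpl and Plin4 levels was not tested.

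Pparg (chr6:115360951-115490399, plus strand) was at 44.5, 46.4 and 53.7 CPM in VAS+H2O, at 42.1, 46.8 and 43.8 CPM in IMQ+H2O, and at 33.5, 57.6 and 45.9 CPM in IMQ+XYF. Its libraries spanned 1.72-fold, the narrowest range of the 10 genes. IMQ+XYF replicate 2, the lowest library for 8 members, was the highest for Pparg. Markers of sebaceous gland cells (sebocytes) had the library order of Pparg in IMQ+XYF and IMQ+H2O, and another order in VAS+H2O. Their summed level was 2287, 2920 and 2834 CPM in VAS+H2O, 2464, 2979 and 2626 CPM in IMQ+H2O, and 1440, 2670 and 1645 CPM in IMQ+XYF. This order was not particular to sebocytes. In IMQ+XYF the summed skeletal muscle markers (154, 1144 and 812 CPM) and cartilage markers (1119, 3088 and 1555 CPM) had it too. In IMQ+H2O it was the order of 8 of the 10 members. The part of sebocytes in the Pparg levels was not tested. The log2 fold change of Pparg was -0.12 (95% interval -0.53 to 0.28) for IMQ+H2O against VAS+H2O and 0.045 (-0.36 to 0.45) for IMQ+XYF against IMQ+H2O. Both intervals lie within the limit of 1.

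Within groups, the libraries kept 1 order for most of the members. In IMQ+H2O, replicate 1 was lowest, replicate 3 next and replicate 2 highest for 8 of the 10 genes, all but Lpl and Fabp4. In IMQ+XYF, replicate 2 was lowest, replicate 3 next and replicate 1 highest for 7 genes, namely Adipoq, Lep, Retn, Cfd, Plin1, Cidec and Fabp4. In VAS+H2O, replicate 1 was lowest for 9 genes, and 6 shared the whole order. The SD of log2 CPM within groups was between 0.63 (Cidec) and 0.82 (Retn and Plin1) for Adipoq, Lep, Retn, Cfd, Plin1 and Cidec, and their group means spanned between 0.083 (Adipoq) and 0.60 (Retn). For Plin4 the SD within groups was 0.18 and the group means spanned 0.90, and for Fabp4 these were 0.42 and 1.01. For Lpl they were 0.35 and 0.70, and for Pparg 0.24 and 0.12.

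For IMQ+H2O against VAS+H2O, 0 of 10 members were called by edgeR and 1, Fabp4, by DESeq2. DESeq2 called 948 of the 22430 genes tested, and edgeR 0.994% of them. At any size of change, 1 member, Plin4, met the limit on the adjusted p, against 1.37% of genes. With an unadjusted p under 0.05 there were 2 members, against 20.9% of genes. The libraries of the groups did not overlap for 2 members, Plin4 and Fabp4, against 31.5% of genes, which is no more than the background. The members were split into 5 higher and 5 lower, with a median log2 fold change of -0.0082, beside -0.023 for all genes.

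For IMQ+XYF against IMQ+H2O, 0 of 10 members were called by edgeR, against 0.00892% of genes. The DESeq2 Wald test called 0 members and 203 of the 22430 genes tested. By edgeR the share of genes was the same, 0.00892%, without the limit on size. Unadjusted p was under 0.05 for 2 members, Fabp4 and Plin4, against 11.7% of genes. The libraries did not overlap for 3 members, Plin4, Lpl and Fabp4, all lower in IMQ+XYF, against 18.0% of genes. The median was -0.030, beside 0.0054 for all genes, and 0.21 without IMQ+XYF replicate 2. Without that library the log2 fold changes were 0.46 for Adipoq, 0.63 for Lep, 0.34 for Retn, 0.37 for Cfd, 0.57 for Plin1 and 0.084 for Cidec. They were -0.33 for Plin4, -0.41 for Lpl, -0.43 for Fabp4 and -0.13 for Pparg, and 0 of the 10 were called by edgeR.

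For IMQ+XYF against VAS+H2O, 0 of 10 members were called by edgeR, against 1.20% of genes. DESeq2 called 0 members and 737 of the 22430 genes tested. At any size, 0 met the limit on the edgeR adjusted p, against 2.02% of genes. Unadjusted p was under 0.05 for 2 members, Lpl and Plin4, against 18.3% of genes. The libraries did not overlap for 1 member, Plin4, against 22.1% of genes. The median was 0.057, beside -0.024 for all genes, and 0.48 without IMQ+XYF replicate 2. Leaving that library out gave log2 fold changes of 0.38 for Adipoq, 0.74 for Lep, -0.18 for Retn, 0.57 for Cfd, 0.032 for Plin1 and 0.65 for Cidec. Plin4 was then at 0.58, Lpl at -0.67, Fabp4 at 0.58 and Pparg at -0.23, and 0 of the 10 were called by edgeR. The 3 comparisons share libraries, so their values are not independent.

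Because the fat cell genes shared their swings between libraries, each was also divided by Adipoq in the same library. Adipoq was chosen as the divisor with its values known, and an exact permutation test of 3 against 3 libraries cannot go below p = 0.10, so these ratios are a description. The ratio of Cidec to Adipoq was 0.967, 0.916 and 0.783 in VAS+H2O, 1.30, 1.34 and 1.47 in IMQ+H2O, and 1.16, 1.14 and 0.930 in IMQ+XYF. IMQ+H2O lay above both other groups, which overlapped. The ratio of Plin1 to Adipoq was 0.706, 0.661 and 0.873 in VAS+H2O, 0.442, 0.542 and 0.636 in IMQ+H2O, and 0.598, 0.426 and 0.573 in IMQ+XYF. Both imiquimod groups lay below VAS+H2O. The ratio of Retn to Adipoq was 0.342, 0.391 and 0.470 in VAS+H2O and 0.325, 0.293 and 0.221 in IMQ+XYF, without overlap. The ratio of Lep to Adipoq was 0.247 ± 0.00430 in VAS+H2O, 0.279 ± 0.0517 in IMQ+H2O and 0.292 ± 0.0447 in IMQ+XYF, and the groups overlapped. Of the 9 ratios, 3 did not overlap for IMQ+H2O against VAS+H2O (Plin1, Cidec and Fabp4), against 7.65% of genes. The count was 1 for IMQ+XYF against IMQ+H2O (Cidec), against 3.47%, and 2 for IMQ+XYF against VAS+H2O (Retn and Plin1), against 5.06%. Without the division the shares of genes were 31.5%, 18.0% and 22.1% in the 3 comparisons. Deviations from group means correlated with those of Adipoq at 0.976 for Cidec, 0.966 for Plin1, 0.920 for Retn and 0.722 for Fabp4. Shares over all genes are therefore not a like background for these ratios.

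**Figure D4:**
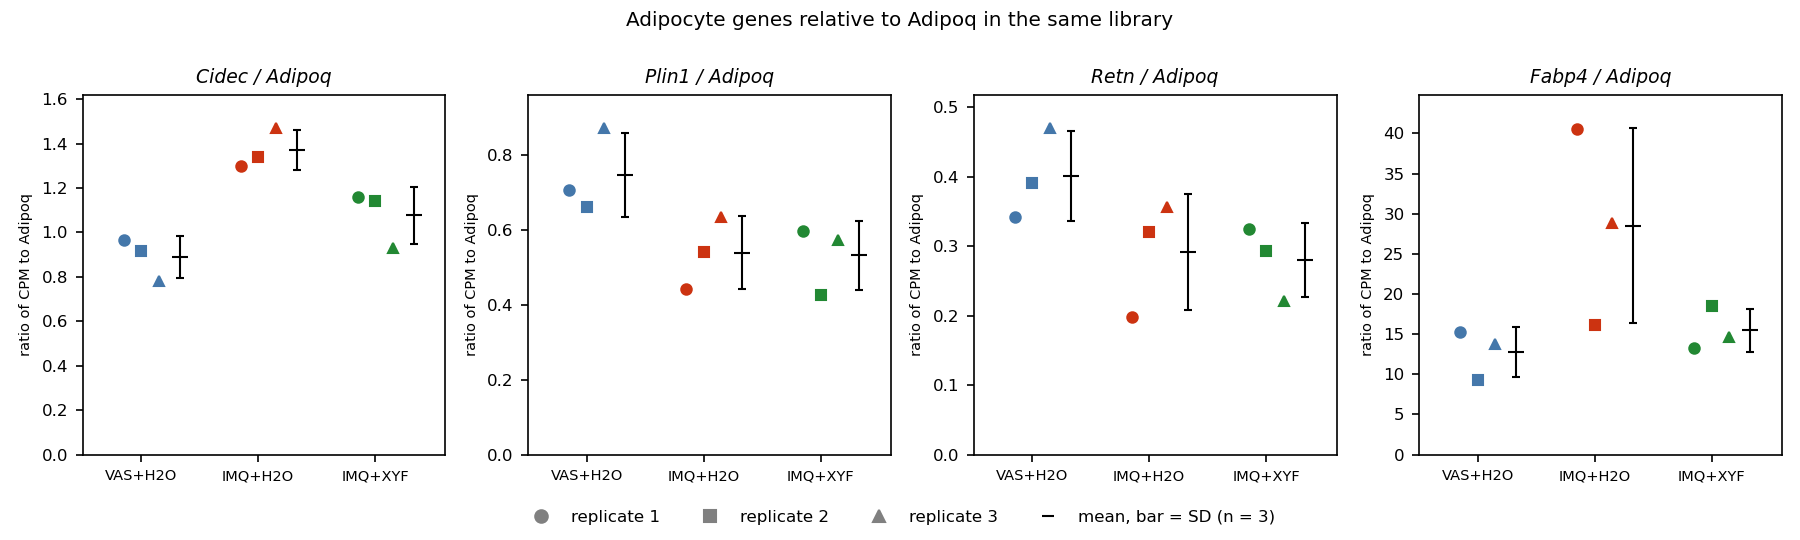
Ratio of the CPM of Cidec, Plin1, Retn and Fabp4 to that of Adipoq in the same library (symbols), with mean and SD (n = 3 per group). Cidec was at 0.889 ± 0.0951, 1.37 ± 0.0895 and 1.08 ± 0.127 and Plin1 at 0.747 ± 0.112, 0.540 ± 0.0969 and 0.532 ± 0.0928 in VAS+H2O, IMQ+H2O and IMQ+XYF.

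Around these genes stood 10 lists of fat cell functions, in which 5 genes outside the set were called. Over all genes tested, edgeR called 0.994% for IMQ+H2O against VAS+H2O, 0.00892% for IMQ+XYF against IMQ+H2O and 1.20% for IMQ+XYF against VAS+H2O. Angptl4, a secreted inhibitor of lipoprotein lipase that PPARs and fasting induce, was at 12.9, 22.6 and 17.3 CPM in VAS+H2O, at 101, 111 and 95.6 CPM in IMQ+H2O, and at 102, 76.0 and 116 CPM in IMQ+XYF. Both imiquimod groups lay far above VAS+H2O and overlapped each other. The log2 fold change of Angptl4 was 2.54 ± 0.23 (SE) for IMQ+H2O against VAS+H2O (edgeR adjusted p = 0.00478) and 2.48 ± 0.22 (SE) for IMQ+XYF against VAS+H2O (adjusted p = 0.0107). It was -0.060 (95% interval -0.54 to 0.42) for IMQ+XYF against IMQ+H2O. Angptl4 stayed called in both under all alternatives, with adjusted p up to 0.0315 and 0.0419.

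Gpihbp1, the capillary protein that anchors lipoprotein lipase, was at 17.3 ± 0.401, 41.6 ± 8.13 and 20.5 ± 7.13 CPM in VAS+H2O, IMQ+H2O and IMQ+XYF. Its log2 fold change was 1.26 for IMQ+H2O against VAS+H2O (edgeR adjusted p = 0.0553) and -1.02 for IMQ+XYF against IMQ+H2O (adjusted p = 0.363). The first was called by DESeq2 (adjusted p = 0.000326), with only these 2 groups fitted (0.0181) and without IMQ+XYF replicate 2 (0.0101), and the second by DESeq2 (0.0292). Gpihbp1 is also among the endothelial markers given beside Fabp4. Of the 11 genes of fatty acid uptake and binding, 1 was called higher (Angptl4) and 0 lower by edgeR for IMQ+H2O against VAS+H2O. Unadjusted p was under 0.05 for 4 higher and 1 lower, against 20.9% of all genes. The median of that list was -0.064 in that comparison and -0.33 for IMQ+XYF against IMQ+H2O.

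For IMQ+H2O against VAS+H2O, 16 of 18 genes that make fatty acids and triglyceride were lower and 2 higher, with a median log2 fold change of -0.46 beside -0.023 for all genes, and 1 was called lower. Of the 18, 7 were lower and 0 higher at an unadjusted p under 0.05, against 20.9% of all genes. Most markers of epidermis and dermal fibroblasts were also lower in this comparison. Of 10 epidermis markers 9 were lower (median -1.01), with summed levels of 3662 to 6554 CPM in VAS+H2O, 2159 to 3254 CPM in IMQ+H2O and 3829 to 14706 CPM in IMQ+XYF. Of 10 dermal fibroblast markers 8 were lower (median -0.35), with summed levels of 15421 to 26388, 11079 to 18096 and 11145 to 18459 CPM. By edgeR 0 markers of either list were called, and 2 and 3 were lower at an unadjusted p under 0.05, against 20.9% of all genes. Their part in the synthesis genes was not tested. The gene called was Dgat2, which adds the last acyl chain of triglyceride. It was at 127, 111 and 137 CPM in VAS+H2O, at 53.6, 50.2 and 54.5 CPM in IMQ+H2O, and at 98.4, 143 and 109 CPM in IMQ+XYF. The IMQ+H2O libraries lay below all others, and both other groups overlapped. Dgat2 had, for IMQ+H2O against VAS+H2O, a log2 fold change of -1.24 (edgeR adjusted p = 0.0161), and adjusted p was between 0.0631 and 0.0707 without VAS+H2O replicate 3, IMQ+H2O replicate 2 or IMQ+H2O replicate 3. With XYF added, in IMQ+XYF against IMQ+H2O, its log2 fold change was 1.15 (adjusted p = 0.154), and the DESeq2 Wald test called it (adjusted p = 2.02e-08).

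For IMQ+XYF against VAS+H2O, 15 of the 18 synthesis genes were lower, with a median of -0.48, and 1 was called. Of the 18, 8 were lower and 0 higher at an unadjusted p under 0.05, against 18.3% of all genes. In that comparison 9 of 10 fibroblast markers were lower (median -0.48) and 8 of 10 epidermis markers higher (median 0.49). Thrsp, a lipogenic nuclear protein, was at 14.5, 9.81 and 14.8 CPM in VAS+H2O, at 5.10, 6.38 and 4.49 CPM in IMQ+H2O, and at 4.17, 2.20 and 4.77 CPM in IMQ+XYF. Its log2 fold change was -1.81 for IMQ+XYF against VAS+H2O (edgeR adjusted p = 0.0333) and -1.29 for IMQ+H2O against VAS+H2O (adjusted p = 0.0731). The latter was called by DESeq2 (adjusted p = 0.00256), with only these 2 groups fitted (0.0319) and without IMQ+XYF replicate 2 (0.0239). The call for IMQ+XYF was lost without any single library other than IMQ+XYF replicate 2, with adjusted p between 0.0569 and 0.121. Sebocytes also make these lipids. For IMQ+XYF against VAS+H2O, 9 of their 11 tested markers were lower (median -0.39) and 0 were called by edgeR. At an unadjusted p under 0.05, 3 were lower and 0 higher, against 18.3% of all genes. The 11 markers had a median of 0.012 for IMQ+H2O against VAS+H2O and -0.36 for IMQ+XYF against IMQ+H2O. In the latter, 11 of 11 were lower and 0 called by edgeR, with 2 at an unadjusted p under 0.05, against 11.7% of all genes. The summed level of the 12 listed sebocyte markers was 2287 to 2920 CPM in VAS+H2O, 2464 to 2979 CPM in IMQ+H2O and 1440 to 2670 CPM in IMQ+XYF. The part of sebocytes was not tested either. Mogat1, a monoacylglycerol acyltransferase, was at 4.21 ± 2.24, 1.57 ± 1.52 and 5.84 ± 3.80 CPM in the 3 groups and was not called.

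Of the secreted genes, Retnla, a resistin-like molecule of fat tissue and alternatively activated macrophages, was called lower. It was at 5.48, 8.17 and 7.74 CPM in VAS+H2O, at 2.0, 1.31 and 1.25 CPM in IMQ+H2O, and at 1.41, 0.976 and 1.67 CPM in IMQ+XYF. Both imiquimod groups lay below VAS+H2O. The log2 fold change of Retnla was -2.24 for IMQ+H2O against VAS+H2O (edgeR adjusted p = 0.0186) and -2.39 for IMQ+XYF against VAS+H2O (adjusted p = 0.0163). The first call was lost without VAS+H2O replicate 2 or 3 or IMQ+H2O replicate 2 or 3 (adjusted p between 0.0661 and 0.0922), and the second without VAS+H2O replicate 2 or 3 or IMQ+XYF replicate 1 (adjusted p between 0.0578 and 0.0638).

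Of 7 tested genes of thermogenic fat, 2 were higher and 5 lower for IMQ+XYF against VAS+H2O (median -0.42), and 5 were higher and 2 lower for IMQ+H2O against VAS+H2O (median 0.19). The 1 gene called, Dio2, the enzyme that activates thyroid hormone, was at 15, 8.48 and 9.45 CPM in VAS+H2O, at 18.4, 32.3 and 33.8 CPM in IMQ+H2O, and at 41.4, 22.4 and 36.5 CPM in IMQ+XYF. All libraries of both imiquimod groups lay above VAS+H2O. The log2 fold change of Dio2 was 1.61 for IMQ+XYF against VAS+H2O (edgeR adjusted p = 0.0475) and 1.36 for IMQ+H2O against VAS+H2O (adjusted p = 0.0753), which was called by DESeq2 (adjusted p = 0.00214) and without IMQ+XYF replicate 2 (adjusted p = 0.0434). The call for IMQ+XYF was lost without any single library other than IMQ+XYF replicate 2, with adjusted p up to 0.163. Cox7a1, a subunit of cytochrome oxidase in brown fat and muscle, was at 5.47 ± 2.77, 5.82 ± 1.93 and 1.75 ± 1.24 CPM in the 3 groups. Its lowest library was IMQ+XYF replicate 1, at 0.386 CPM, where the muscle markers were also lowest. Cidea and Elovl3 of this list were also among the sebocyte markers, at 139 ± 24.8 and 243 ± 48.7 CPM in VAS+H2O. The part of muscle and sebocytes in this list was not tested. Ucp1, the uncoupling protein that defines brown fat, had between 0 and 2 counts per library, under the floor of 3 counts, which corresponded to 0.0373 to 0.103 CPM.

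**Figure D5:**
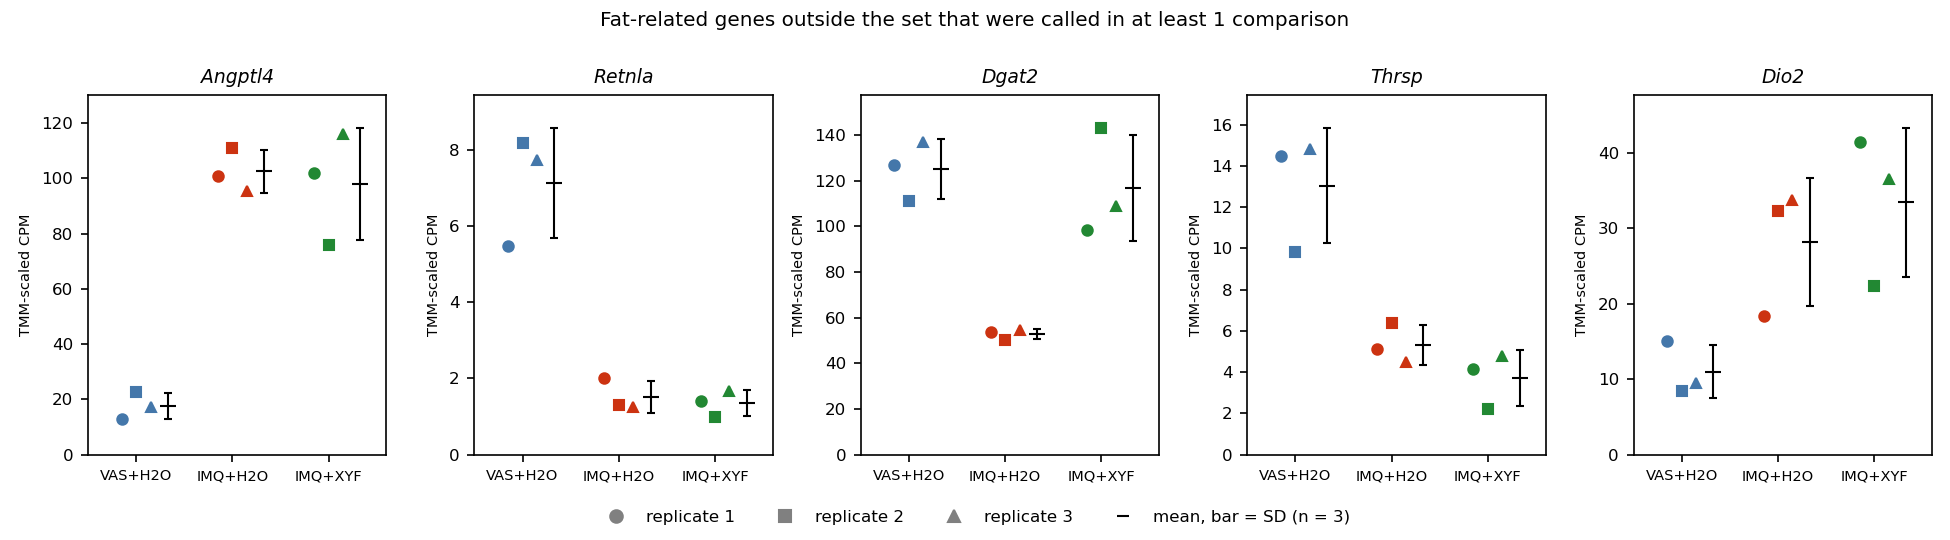
TMM-scaled CPM by library (symbols) with mean and SD (n = 3 per group) of the 5 genes of the fat cell lists, outside the 10 adipocyte genes, that were called in at least 1 comparison. Angptl4 rose from 17.6 ± 4.84 CPM in VAS+H2O to 102 ± 7.72 CPM in IMQ+H2O, and Retnla fell from 7.13 ± 1.44 to 1.52 ± 0.416 CPM.

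In the remaining lists 0 genes were called by edgeR, whereas the DESeq2 Wald test called Pnpla3 for IMQ+H2O against VAS+H2O and Plin5 and Slc2a4 for IMQ+XYF against IMQ+H2O among the genes named here. Of 12 fat cell transcription factors, 5 were higher and 7 lower for IMQ+H2O against VAS+H2O. Unadjusted p was under 0.05 for 1 and 3 of them, against 20.9% of all genes. Nr1h3, which encodes the sterol sensor LXRα, was at 10.3 ± 1.18, 17.4 ± 1.07 and 13.9 ± 1.56 CPM in VAS+H2O, IMQ+H2O and IMQ+XYF. Its log2 fold change for IMQ+H2O against VAS+H2O was 0.75 (adjusted p = 0.0429), under the limit on size. Srebf1, the regulator of lipogenesis, was at 241 ± 54.1, 136 ± 6.56 and 206 ± 55.8 CPM, with a log2 fold change of -0.82 for IMQ+H2O against VAS+H2O (adjusted p = 0.0944).

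Of 13 lipid droplet genes, 2 were higher and 11 lower for IMQ+XYF against IMQ+H2O. Unadjusted p was under 0.05 for 1 and 3 of them, against 11.7% of all genes. For IMQ+H2O against VAS+H2O it was so for 4 higher and 3 lower, against 20.9%. For IMQ+XYF against VAS+H2O it was so for 2 higher and 4 lower, against 18.3%. Plin5, the perilipin of oxidative tissues such as muscle, was at 2.10 ± 0.619, 4.35 ± 1.94 and 1.6 ± 0.571 CPM in VAS+H2O, IMQ+H2O and IMQ+XYF. Slc2a4, the insulin-responsive glucose transporter of fat and muscle, was at 21.2 ± 6.55, 26.2 ± 7.18 and 12.2 ± 3.28 CPM. The log2 fold changes for IMQ+XYF against IMQ+H2O were -1.44 for Plin5 and -1.11 for Slc2a4, both with an edgeR adjusted p of 0.364. Fitm1, which helps droplets form in muscle, was at 2.90 ± 1.46, 2.63 ± 0.966 and 1.17 ± 0.741 CPM. The muscle markers given beside Lpl were lower in the same comparison, and their part was not tested.

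Of 10 lipolysis genes, 3 were higher and 7 lower for IMQ+H2O against VAS+H2O. Unadjusted p was under 0.05 for 0 and 2 of them, against 20.9% of all genes. For IMQ+XYF against IMQ+H2O it was so for 3 higher and 1 lower, against 11.7%. For IMQ+XYF against VAS+H2O it was so for 0 higher and 4 lower, against 18.3%. Pnpla3, a lipid droplet hydrolase, was at 6.94 ± 0.805 CPM in VAS+H2O and 2.59 ± 0.106 CPM in IMQ+H2O, a log2 fold change of -1.42 with an edgeR adjusted p of 0.0514. Beside DESeq2, it was called with only these 2 groups fitted (adjusted p = 0.0179) and without IMQ+XYF replicate 1 (0.0233) or 2 (0.0202). G0s2, the inhibitor of the first triglyceride lipase, was at 102 ± 47.4, 66.0 ± 14.4 and 152 ± 76.2 CPM in VAS+H2O, IMQ+H2O and IMQ+XYF. Of 5 adipokine receptor genes, 5 were lower for IMQ+XYF against IMQ+H2O, with a median of -0.61. Unadjusted p was under 0.05 for 2, against 11.7% of all genes. Lepr, the leptin receptor, was at 125 ± 19.1, 112 ± 25.6 and 72.5 ± 20.4 CPM in the 3 groups. Its log2 fold change for IMQ+XYF against VAS+H2O was -0.79 (adjusted p = 0.127). Aplnr, the apelin receptor, was at 8.57 ± 4.42, 14.8 ± 4.58 and 9.53 ± 5.29 CPM.

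Of 10 genes of insulin-responsive glucose uptake, 4 were higher and 6 lower for IMQ+H2O against VAS+H2O. Unadjusted p was under 0.05 for 0 and 1 of them, against 20.9% of all genes. Trarg1, a partner of the glucose transporter in fat cells, was at 6.36 ± 1.74, 9.70 ± 3.03 and 6.63 ± 2.54 CPM in the 3 groups. Of 10 genes of adipocyte precursors, 4 were higher and 6 lower in that comparison. Unadjusted p was under 0.05 for 1 and 1 of them, against the same 20.9% of all genes. For IMQ+XYF against IMQ+H2O, 2 were higher and 8 lower. Dpp4, a marker of early precursors, was at 21.7 ± 8.53, 12.5 ± 3.34 and 11.5 ± 5.16 CPM, and Icam1, a marker of committed precursors that inflamed endothelium also makes, at 513 ± 336, 265 ± 58.5 and 259 ± 43.3 CPM.

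The pattern of the members over libraries was summarised as their mean log2 CPM, each gene centred over the 9 libraries. It was -0.55, 0.34 and 0.19 in VAS+H2O, -0.27, 0.50 and 0.087 in IMQ+H2O, and 0.36, -0.77 and 0.11 in IMQ+XYF. This mean, of which each member is a part, did not follow all members alike. Its correlation over the 9 libraries was 0.869 to 0.973 with Adipoq, Lep, Retn, Cfd, Plin1 and Cidec. With Lpl, Fabp4, Plin4 and Pparg it was 0.556, 0.547, 0.202 and -0.391. Of 13653 other genes, Bmp3, a growth factor of the BMP family, was most like this mean. The correlation of log2 CPM over the 9 libraries, given as a description of points that share groups and library depth, was 0.975 for Bmp3. It was 0.973 for Casp1, the inflammatory caspase, and 0.969 for the adhesion protein gene Nectin2. These 3 stayed among the 15 most alike whichever of the 9 libraries was left out. The other 12 were Atp6v0d1, B4galnt1, Bmp2k, Ptk2b, Prkx, Lrrc8d, Gcnt2, Tmem14c, Mlf1, Fstl3, P2ry10 and Cers6, the last at 0.933. Lrrc8d, a subunit of the volume-regulated anion channel, varied most of them, from 2.99 CPM in IMQ+XYF replicate 2 to 41.0 CPM in IMQ+XYF replicate 1. Bmp3 ranged from 3.95 to 10.4 CPM, and the same IMQ+XYF replicate 2 was lowest. None of the 15 was called, and none was on the lists of fat cell functions or of other cell types.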

How the data were processed

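RNA from ear dermis was measured in 9 libraries, 3 per group. The authors' deposited table holds raw whole-number counts per Ensembl gene, with no normalization. Per the methods and processing notes, the authors aligned reads with STAR 2.5 to GRCm38 (Ensembl release 90) and tested them with DESeq2. The notes also name FastQC, Cuffnorm and DESeq 1.22.1. The counting tool, its use of strand and its handling of multiply mapped reads are not given in the sources used here. Labels call the libraries strand-specific, whereas the kit named in the methods does not mark strand. Plin4 shares 17 exonic bases (0.294%) with Hdgfl2 on the other strand.

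Of 52550 genes, 16554 had no count. After filterByExpr, 22430 were tested with edgeR 4.0.16 in R 4.3.3: TMM scaling, all 9 libraries in 1 quasi-likelihood fit, and Benjamini-Hochberg adjustment over all tested genes. The fit was tested on simulated data. The biological coefficient of variation was 0.296. The limits were those of the study. DESeq2 1.42.0 was an alternative. Others were its size factors, no filter on low counts, only the groups compared, a replicate block, and leaving out each library. Standard errors were derived from the F statistic. Lengths are of the longest principal transcript in GENCODE vM21 (GRCm38). The floor was fixed at 3 counts and concerns counting error only. The 95% intervals of fold changes come from the quasi-likelihood fit, so they include the spread between libraries.

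Members and gene lists were chosen with earlier results of these data known. Named besides the members were called genes of each list, the 2 with the largest change and a mean of at least 100 counts, up to 3 markers of other cell types, and the 15 genes most like the members.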

Additional observations from a re-analysis of the deposited data

How the results depend on the processing

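No member was called in the IMQ+XYF comparisons under any alternative. For IMQ+H2O against VAS+H2O the count of members called was 1 under the DESeq2 Wald test, 1 when only the 2 groups were fitted, and between 0 and 1 when single libraries were left out (Plin4 without VAS+H2O replicate 2, Fabp4 without IMQ+XYF replicate 2). Over all genes, the counts called were 223, 2 and 270 for imiquimod (IMQ+H2O against VAS+H2O), for XYF (IMQ+XYF against IMQ+H2O) and for both together (IMQ+XYF against VAS+H2O). They were 948, 203 and 737 under DESeq2, 496, 1 and 33 with only the 2 groups, and between 25 and 455, 0 and 4, and 12 and 592 without single libraries. With the replicate number as a block they were 86, 0 and 54, and 0 members were called. The numbers do not pair the libraries, whose deviations from group means correlated between -0.183 and 0.125 for shared numbers. The block ended the Retnla, Thrsp and Dio2 calls, fitting only the 2 groups ended those for IMQ+XYF against VAS+H2O, and dropping the filter on low counts ended the Dio2 call.

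Of 672 values of single genes under alternatives, 42 changed sign, 34 of these on leaving out 1 library, all among members. Retn for IMQ+XYF against IMQ+H2O became 0.00012 under DESeq2, 0.021 without the filter and 0.14 with the replicate block. Adipoq for IMQ+XYF against VAS+H2O became 0.019 under DESeq2, 0.020 with its size factors, 0.013 without the filter, 0.013 with only the 2 groups and 0.063 with the replicate block. Without single libraries, the log2 fold changes ran for IMQ+H2O against VAS+H2O Adipoq from -0.46 to 0.15, Lep from -0.29 to 0.35 and Cfd from -0.21 to 0.41. They ran for IMQ+XYF against IMQ+H2O Adipoq from -0.23 to 0.46, Lep from -0.19 to 0.63, Retn from -0.55 to 0.44, Cfd from -0.56 to 0.37, Plin1 from -0.27 to 0.57, Cidec from -0.69 to 0.084 and Pparg from -0.13 to 0.23. They ran for IMQ+XYF against VAS+H2O Adipoq from -0.33 to 0.38, Lep from -0.11 to 0.74, Cfd from -0.38 to 0.57, Plin1 from -0.83 to 0.032, Cidec from -0.15 to 0.65 and Pparg from -0.23 to 0.10. None of these values passed the test. The cause of these changes was not tested.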
